A study of Mus musculus with 8 samples.

Results

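Receptors for dopamine and noradrenaline were examined in the dorsal dentate gyrus of mice that carried or lacked Cav3.1, a T-type calcium channel pore. The group was defined by name and held 10 receptor genes. Of these, 6 were matched through the gene symbol of their array probe, namely the dopamine receptor genes Drd2, Drd3, Drd4 and Drd5 and the adrenoceptor genes Adra1b and Adra2c. Each of the 6 had 1 probe on the array, which named 19321 genes by 23473 probes, and all 6 entered the comparison of 21150 probes. Adra1a, Adra1d, Adra2a and Adrb1 were not analysed here.

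Total RNA came from the dissected dentate gyrus of male C57BL/6J mice, 8 to 12 weeks old, and was amplified, coupled to Cy5 and hybridised to single-colour TORAY chips. The groups were 4 wild-type arrays (WT) and 4 arrays labelled Cav3.1 KO, with no treatment named for either. The labels give the strain of the knockout line as C57BL/6J and do not state how the allele was made, whether littermates served as controls, or whether each array came from its own animal. The p-values therefore speak only of variation among these arrays, part of which may be technical.

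Dopamine and noradrenaline act on receptors of the G protein-coupled superfamily. D2-like receptors (Drd2, Drd3, Drd4) and alpha-2 adrenoceptors couple to Gi/o proteins and lower cyclic AMP, D1-like receptors (Drd1, Drd5) and beta adrenoceptors couple to Gs proteins and raise it, and alpha-1 adrenoceptors act through Gq and phospholipase C. The neurons that make both transmitters lie outside the hippocampus and reach the dentate gyrus through long axons, among them noradrenergic axons from the locus coeruleus, and both transmitters are known for modulating plasticity and excitability there.

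Median probes lay between 80.9 and 94.3 intensity units. Mean blank spots lay between 53.0 and 59.7 on WT arrays and between 56.2 and 63.4 on Cav3.1 KO arrays. WT replicates 1, 2 and 4 had a lower mean blank than every Cav3.1 KO array. Normalised values of any pair of arrays correlated across probes with r from 0.991 to 0.997. WT replicate 3 and Cav3.1 KO replicate 4 carried chip numbers apart from those of the other 6 arrays, so differences are also given within each chip number series. The probe for Cacna1g, the gene of Cav3.1, gave normalised log2 intensities of 6.43, 6.61, 6.53 and 6.61 on WT replicates 1 to 4 and 6.55, 6.43, 6.39 and 6.48 on Cav3.1 KO replicates 1 to 4. The ranges overlapped (limma adjusted p 0.816). This does not check the genotype, since where the probe lies relative to the deletion was not known here. Markers of mature granule neurons, such as Prox1 and C1ql2, were above the blank level on all 8 arrays for 8 of 8 genes. This held for 19402 of 23381 probes without a spot marked not good. Of the 8 markers 1, C1ql2, fell past the limma threshold, where 0.0898% of all probes were called lower. With a normexp offset of 16 there were 3 called (C1ql2, Plk5 and Trpc6), and 2 with blank subtraction or 75th percentile scaling. The list did not move as one: 5 of the 8 markers were lower and 3 (Calb1, Tdo2 and Dsp) higher. Calb1 differed by 0.34 (SE 0.127, limma adjusted p 0.523).

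The members fell into 2 sets by brightness. Drd5 and Adra2c gave clear signals at 1.97 to 3.57 times the mean blank spot, whereas Drd2, Drd3, Drd4 and Adra1b reached only 1.04 to 1.22 times it. A spot was called above the blank level if it exceeded the 95th percentile of the blank spots of its own array. By that threshold 5 of the 6 members were above blank on all 8 arrays, and Adra1b was above it on 6. The threshold was a low one, as 85.4% to 93.0% of all probes passed it on an array. On all 8 arrays it was passed by 19402 of 23381 probes without a spot marked not good, a share near that of the members. The negative control spots gave the same count, 5 of 6 on all 8 arrays, when their 95th percentile was used, and Adra1b then passed on 4 arrays. With the mean of the blank spots plus 2 SD as threshold, 4 of 6 passed on all 8 arrays, Drd4 passed on 7 and Adra1b on 3.

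The sequences before the annotated start sites of the 2 clearly measured members are shown because these are the receptors whose levels the results turn on. Both lie on chromosome 5 of the RefSeq annotation of GRCm38.p6, on the plus strand, at chr5:38319259-38319508 for Drd5 and chr5:35278316-35278565 for Adra2c. Capitals mark matches on either strand to a GC box (GGGCGG) or a CCAAT box (CCAAT).
Drd5: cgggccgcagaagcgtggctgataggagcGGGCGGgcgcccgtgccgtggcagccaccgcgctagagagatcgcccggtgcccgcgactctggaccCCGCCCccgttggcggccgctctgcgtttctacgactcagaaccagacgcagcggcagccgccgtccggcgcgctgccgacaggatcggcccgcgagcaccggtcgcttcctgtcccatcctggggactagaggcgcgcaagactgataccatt
Adra2c: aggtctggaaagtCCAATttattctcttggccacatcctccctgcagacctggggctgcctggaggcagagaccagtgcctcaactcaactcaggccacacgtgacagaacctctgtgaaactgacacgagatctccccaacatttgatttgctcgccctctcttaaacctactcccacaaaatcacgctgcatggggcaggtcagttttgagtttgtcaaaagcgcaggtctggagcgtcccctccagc
The 250 bases before Drd5 held 71.2% G and C and 35 CpG dinucleotides, against 53.6% and 6 before Adra2c and medians of 52.4% and 6 over all 32851 promoters of the table. Drd5 had 2 GC boxes and no CCAAT box, and Adra2c had 1 CCAAT box and no GC box. Over all promoters, 32.7% held a GC box and 33.9% a CCAAT box in a window of this length. The core of the cyclic AMP response element, TGACG, was present in neither sequence and in 17.8% of all promoters. These matches are a description of letters only. Of 34 genes tested that lie between both receptor genes on the chromosome, 0 passed the limma threshold, against 0.288% of all probes. At an unadjusted p under 0.05 there was 1, Sorcs2 (difference 0.15, SE 0.0418, limma adjusted p 0.319), against 8.1% of all probes.

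**Figure D1:**
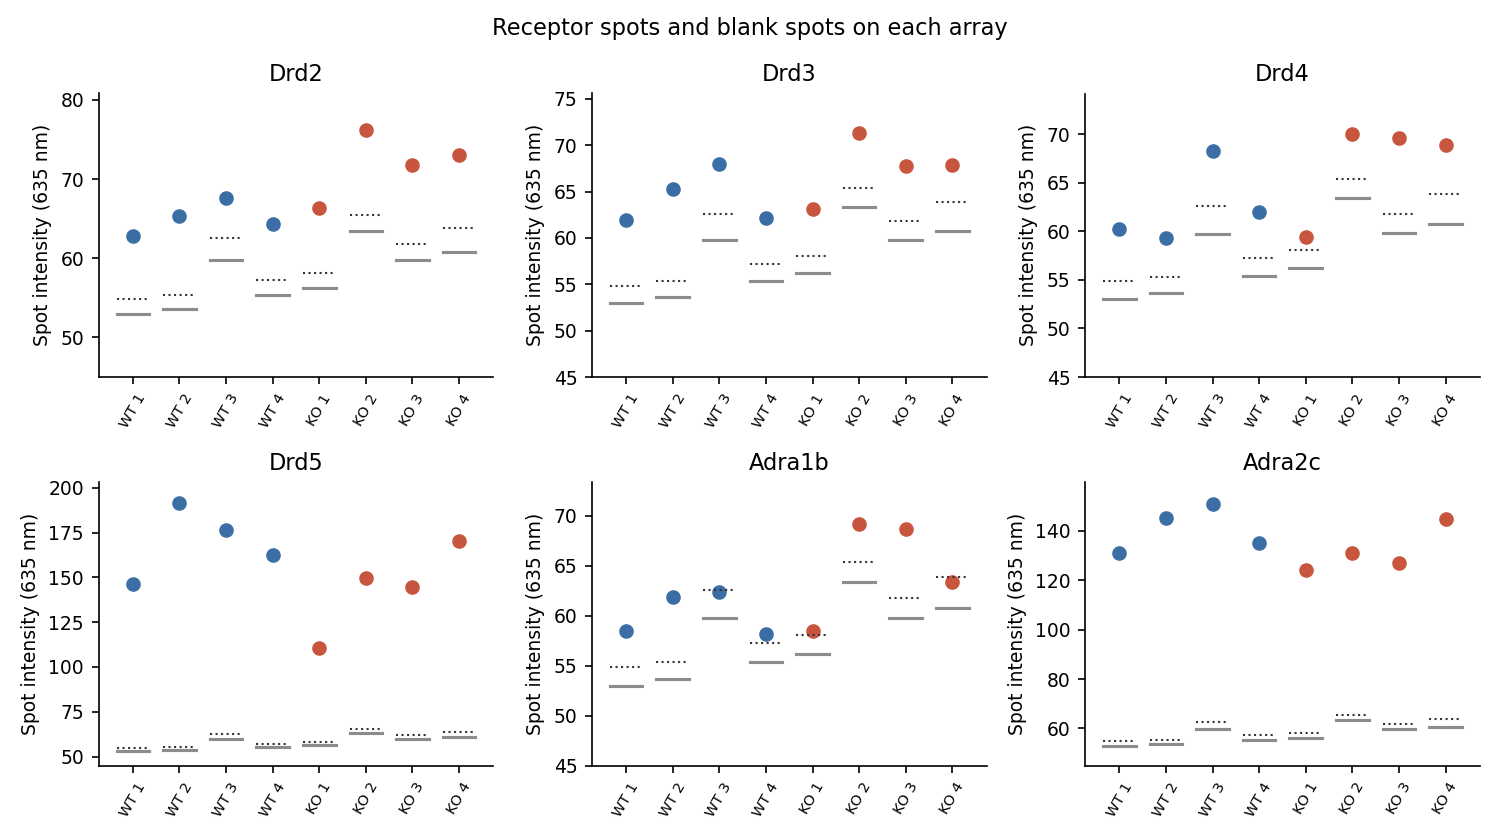
Median Cy5 spot intensity in scanner units (vertical axis, linear, starting above 0 and scaled to each receptor) of the 6 receptor probes on each of the 8 arrays, WT in blue and Cav3.1 KO in red. Grey bars are the mean blank spot of the array and dotted bars the 95th percentile of its blank spots. Drd5 and Adra2c lie well clear of both lines on every array, the other 4 stay close to them, and Adra1b falls below the dotted bar on the arrays WT 3 and KO 4.

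None of the 6 receptors passed the test between the genotypes. By limma, 0 of 6 had an adjusted p under 0.05, where 0.288% of all probes tested were called. At an unadjusted p under 0.05 there were 2, Drd5 and Drd2, against 8.1% of all probes. The groups did not overlap for 1 receptor, Drd2, against 4.95% of all probes. The normalised differences of the 6 were above 0 for 3 and below 0 for 3. Their median was -0.010, against -0.00078 over all probes. In tissue RNA, fewer cells of a type and less RNA per cell cannot be told apart. All differences are Cav3.1 KO minus WT.

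Among the Gs-coupled receptors, Drd5, the D1-like dopamine receptor with high affinity for dopamine, showed the largest difference of the 6. Its spots measured 146, 192, 177 and 162 on WT replicates 1 to 4 and 111, 150, 144 and 170 on Cav3.1 KO replicates 1 to 4. The normalised log2 intensities were 7.19, 7.44, 7.31 and 7.44 in WT and 6.89, 7.09, 7.08 and 7.33 in Cav3.1 KO. Cav3.1 KO replicates 1, 2 and 3 lay below all WT arrays, and replicate 4 lay inside the WT range, so the groups overlapped.

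Drd5 averaged 7.35 ± 0.123 over the WT arrays and 7.10 ± 0.18 over the Cav3.1 KO arrays (SD, n = 4 each). The difference was -0.25 (SE 0.0958, 95% interval -0.471 to -0.0303), or 0.841-fold. It did not pass the test over all probes (limma adjusted p 0.536), and the exact two-sided permutation p was 0.0857. After subtraction of the mean blank spot, the scaled intensity was 111 ± 12.8 in WT and 84.9 ± 18.5 in Cav3.1 KO (SD, n = 4), a log2 difference of -0.40. In the authors' deposited table the log2 difference, computed from their values, was -0.46. Neither passed the threshold. Within the larger chip number series, of 3 arrays against 3, the difference was -0.34, and between the remaining 2 arrays it was 0.016. With each array left out in turn it ran from -0.33 to -0.18, and it was -0.24 without Cav3.1 KO replicates 2 and 3.

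Several marker lists of other cells were lower in Cav3.1 KO beside Drd5. For hippocampal CA pyramidal neurons, which lie next to the dentate gyrus, the mean of 7 genes was 7.78 to 7.98 on the WT arrays and 7.56 to 7.74 on the Cav3.1 KO arrays, with no overlap. Of the 7, 5 were lower and 1, Bok, fell past the limma threshold (adjusted p 0.0065), against 0.0898% of all probes called lower. For endothelial cells and pericytes the mean of 8 genes was 7.33 to 7.37 on WT arrays and 7.15 to 7.23 on Cav3.1 KO arrays. There was again no overlap, and 6 were lower and 2 higher, of which Cldn5 was called lower. Cldn5 (-0.79) and Bok (-0.65) had the largest differences of their lists, whose medians were -0.071 and -0.22. Both lists were chosen with earlier results of these data known, and list means without Cldn5 and Bok were not computed. All 8 microglia markers and all 6 oligodendrocyte markers were lower, with overlapping list means and 0 called by limma (1 of each at an unadjusted p under 0.05), and with 75th percentile scaling or cyclic loess 7 of the 8 microglia markers were lower. All 5 choroid plexus and all 5 striatum markers were lower too, with overlapping list means and 0 called. With 75th percentile scaling 4 of the 5 striatum markers were lower. Lists that were mostly higher included mossy cells (4 of 5), thalamus and habenula (7 of 9) and neocortex (5 of 6). The genes of the CA, endothelial, microglia and oligodendrocyte lists were above the blank level on all 8 arrays. The part of any list in the Drd5 values was not tested. The mean of the granule neuron markers was 7.28 to 7.40 on WT arrays and 7.09 to 7.29 on Cav3.1 KO arrays.

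The remaining D1-like receptor gene, Drd1, known for its place on granule cells, was no member of the group. It was above blank on 5 arrays and differed by -0.033 (SE 0.0483, limma adjusted p 0.976), or 0.019 with 75th percentile scaling.

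Among the Gi/o-coupled dopamine receptors, Drd2 stood apart. Drd2, the main D2-like receptor, is known in the dentate gyrus for its expression by hilar mossy cells. Its spots measured 62.7, 65.3, 67.6 and 64.3 on WT replicates 1 to 4, against mean blank spots of 53.0, 53.6, 59.7 and 55.4. On Cav3.1 KO replicates 1 to 4 they measured 66.3, 76.2, 71.8 and 73.1, against 56.2, 63.4, 59.8 and 60.8. Every Drd2 spot was thus between 1.13 and 1.22 times its array's mean blank. This ratio was 1.13 to 1.22 on WT arrays and 1.18 to 1.20 on Cav3.1 KO arrays, so on it the groups overlapped.

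The normalised log2 values of Drd2 were 5.97, 5.98, 5.91 and 5.97 in WT and 6.02, 6.02, 6.01 and 6.03 in Cav3.1 KO. All 4 Cav3.1 KO arrays lay above all WT arrays, and WT replicate 3 was the lowest. The means were 5.96 ± 0.03 and 6.02 ± 0.00945 (SD, n = 4 each), a difference of 0.063 (SE 0.0244, 95% interval 0.00639 to 0.119) or 1.04-fold. The exact two-sided permutation p was 0.0286, the smallest that 4 against 4 arrays can give, and the limma adjusted p was 0.55.

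The offset added before the log compresses differences of a probe so dim. After subtraction of the mean blank spot, Drd2 measured 9.38 ± 1.44 in WT and 12.1 ± 0.325 in Cav3.1 KO (SD, n = 4), a log2 difference of 0.38 with a limma adjusted p of 0.479. In the authors' deposited table the values were 6.9, 7.4, 4.5 and 6.8 in WT and 8.0, 8.3, 7.8 and 7.3 in Cav3.1 KO. There the groups overlapped, because Cav3.1 KO replicate 4 fell below WT replicate 2. The normalised difference was 0.044 within the larger chip number series and 0.12 between the remaining 2 arrays, and without WT replicate 3 it was 0.048.

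Mossy cell markers were set beside Drd2. Their mean over 6 genes was 7.27 to 7.50 on WT arrays and 7.40 to 7.70 on Cav3.1 KO arrays, with overlap, and 4 of 5 tested genes were higher. Calb2, which encodes calretinin and is also made by other neurons, differed by 0.63 (SE 0.383, limma adjusted p 0.806). Csf2rb2 was above the blank level on only 2 arrays and was not tested. The part of mossy cell content in the Drd2 values was not tested.

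Drd3 and Drd4, the other D2-like receptors, differed between the groups by less than their spread allows to be told. Drd3, best known from the ventral striatum, gave spots of 62.0, 65.3, 67.9 and 62.1 in WT and 63.1, 71.3, 67.8 and 67.9 in Cav3.1 KO. Its normalised values lay between 5.91 and 5.97 on WT arrays and between 5.91 and 5.93 on the others, and the groups overlapped. The difference was -0.022 (SE 0.0241, 95% interval -0.0771 to 0.0339, limma adjusted p 0.961), and it turned to 0.027 when arrays were scaled to their 75th percentile.

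Drd4, known from the prefrontal cortex and retina, gave spots of 60.2, 59.3, 68.2 and 62.0 in WT and 59.4, 69.98, 69.6 and 68.9 in Cav3.1 KO. Cav3.1 KO held both the lowest and the highest normalised value, 5.82 on replicate 1 and 5.96 on replicate 3, and the WT values lay between them. The difference was 0.0014 (SE 0.037, 95% interval -0.0835 to 0.0864, limma adjusted p 0.998). After subtraction of the mean blank spot it was -0.044. For probes this close to the blank level the normalised interval bounds a change of the spot, not of the transcript above background.

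**Figure D2:**
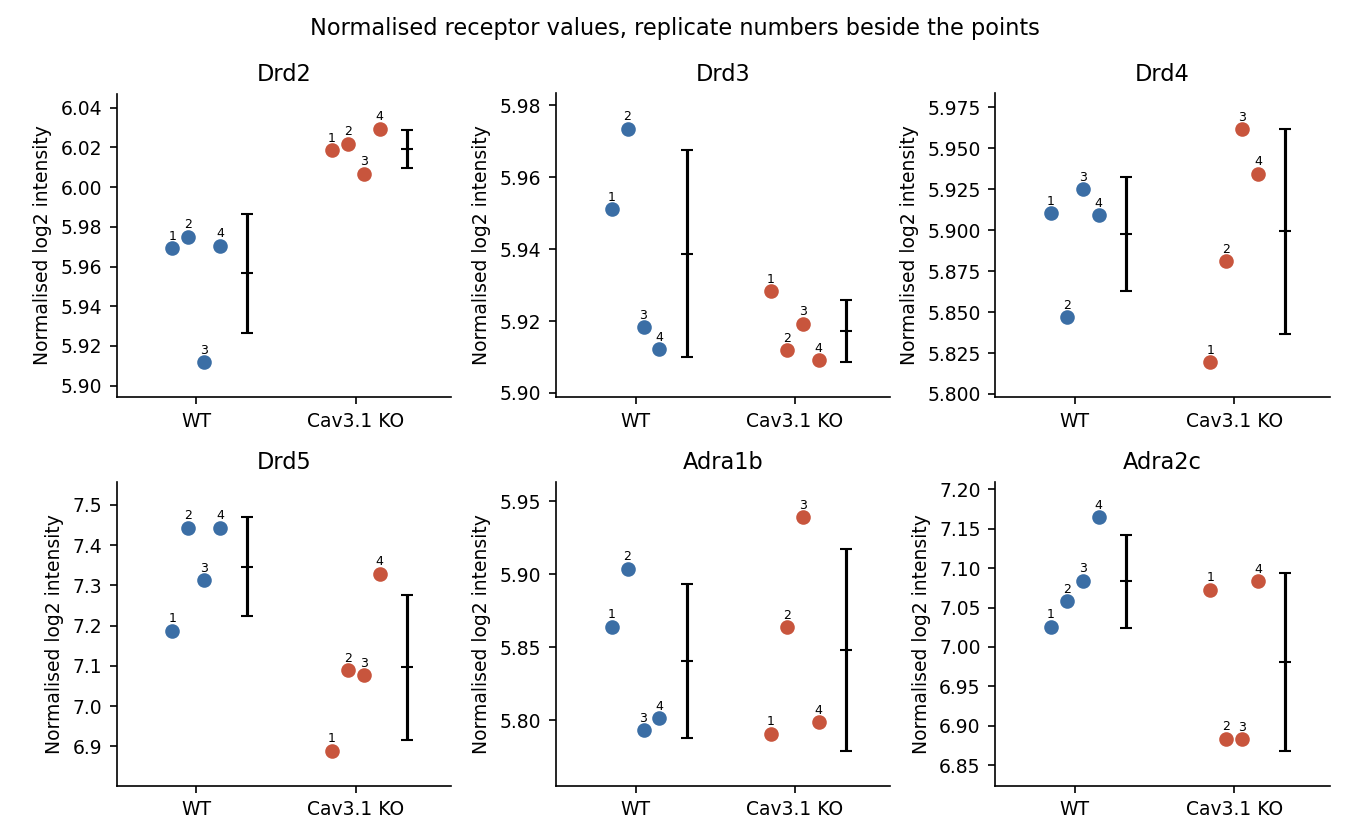
Normalised log2 intensity (vertical axis, scaled to each receptor) of the 6 receptors in WT and Cav3.1 KO, with replicate numbers at the points and the mean ± SD of 4 arrays beside them. Only the points of Drd2 do not overlap, over a range of 0.118, whereas Drd5 spans 0.554.

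Among the adrenoceptors, Adra2c was the clearly measured one. It encodes the alpha-2C adrenoceptor, an inhibitory receptor found on noradrenergic terminals and on their target neurons. Its spots measured 131, 145, 151 and 135 on WT replicates 1 to 4 and 124, 131, 127 and 145 on Cav3.1 KO replicates 1 to 4. The normalised values were 7.03, 7.06, 7.08 and 7.16 in WT and 7.07, 6.88, 6.88 and 7.08 in Cav3.1 KO. Replicates 2 and 3 of Cav3.1 KO were the low ones, and the other 2 lay within the WT range.

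Adra2c averaged 7.08 ± 0.0595 in WT and 6.98 ± 0.113 in Cav3.1 KO (SD, n = 4). The difference was -0.10 (SE 0.0583, 95% interval -0.237 to 0.0316, limma adjusted p 0.772), with an exact two-sided permutation p of 0.229. It was -0.18 after subtraction of the mean blank spot and -0.23 in log2 values of the authors' deposited table. Without Cav3.1 KO replicates 2 and 3 the difference was -0.0051. It was -0.14 within the larger chip number series and -0.0006 between the remaining 2 arrays.

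Those same 2 arrays had the highest level of thalamus and habenula markers, a list mean over 10 genes of 7.73 and 7.79. The other Cav3.1 KO arrays had 6.77 and 6.83, and the WT arrays 6.67 to 7.25. Of the 10 markers, 9 were above the blank level on all 8 arrays, and Tcf7l2 was above it on 1. The same 2 arrays also had the highest mossy cell marker means, 7.70 and 7.68. The part of either in the Adra2c values was not tested.

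Adra1b encodes the alpha-1B adrenoceptor, a Gq-coupled receptor known for strong expression in the thalamus. It was the dimmest member. Its spots measured 58.4, 61.9, 62.3 and 58.1 in WT and 58.4, 69.2, 68.6 and 63.3 in Cav3.1 KO, or 1.04 to 1.15 times the mean blank spot. The normalised values were 5.86, 5.90, 5.79 and 5.80 in WT and 5.79, 5.86, 5.94 and 5.80 in Cav3.1 KO. The high arrays were WT replicates 1 and 2 and Cav3.1 KO replicates 2 and 3, which were also the 4 arrays with the highest thalamus and habenula mean. The thalamus and habenula mean of WT replicates 1 and 2 was 7.22 and 7.25. The same 4 arrays had the highest means of choroid plexus markers, 8.54 to 9.13 against at most 8.34 elsewhere, and of mossy cell markers, 7.44 to 7.70 against at most 7.43.

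Between the genotypes Adra1b differed by 0.0075 (SE 0.0425, 95% interval -0.0902 to 0.105, limma adjusted p 0.996), and the groups overlapped. The 4 arrays on which its spot exceeded the 95th percentile of the negative controls were the same 4. The part of thalamic, choroid plexus or mossy cell RNA in the Adra1b values was not tested.

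**Figure D3:**
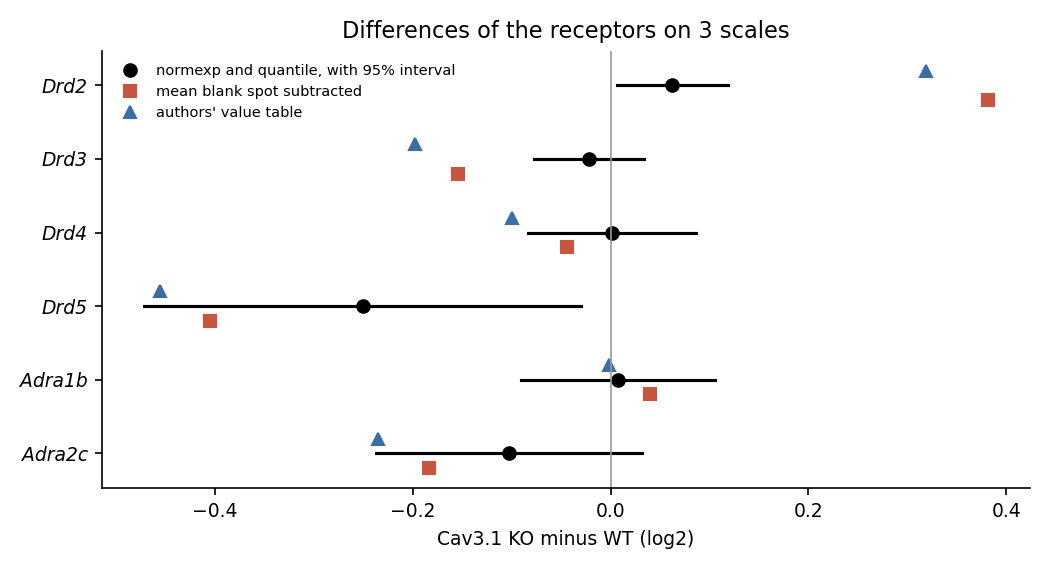
Difference of Cav3.1 KO minus WT (horizontal axis, log2) for the 6 receptors on 3 scales. Black points with bars are the normalised values and their 95% intervals, red squares the values after subtraction of the mean blank spot, and blue triangles the log2 values of the authors' deposited table. The dim Drd2 moves from 0.063 to 0.38 between scales, Drd5 stays below 0 on all of them, and Drd4 and Adra1b change sign.

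Genes whose values followed those of the 2 most variable receptors over the 8 arrays were named by Pearson correlation among 17597 named probes, as a description. Drd5 was most like Prkca (r = 0.992), a classical protein kinase C gene, Mmd (r = 0.983) and Camk2b (r = 0.982), which encodes the beta subunit of calmodulin-dependent kinase II. These 3 genes differed by -0.29, -0.31 and -0.18, and none passed the limma threshold (adjusted p 0.42, 0.422 and 0.587). Adra2c was most like Ppan (r = 0.966), Tut1 (r = 0.948) and Fzd10 (r = 0.945), with differences of -0.062, -0.079 and -0.14. These correlations were picked as the highest of many over 8 arrays.

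The machinery around the receptors was described from lists. For synthesis, transport and breakdown of catecholamines, 11 genes were tested, and 8 were higher and 3 lower. These counts were 11 and 0 with 75th percentile scaling and 7 and 4 after blank subtraction. By limma 1 gene rose, where 0.199% of all probes were called higher. It was Gch1, the rate-limiting enzyme for tetrahydrobiopterin, the cofactor of tyrosine hydroxylase. Gch1 measured 6.21, 6.19, 6.13 and 6.20 on the WT arrays and 6.37, 6.48, 6.51 and 6.42 on the Cav3.1 KO arrays, without overlap. Its difference of 0.26 (SE 0.0375) had a limma adjusted p of 0.0451, close to the threshold. The list held 2 genes at an unadjusted p under 0.05, Gch1 and Maob, against 8.1% of all probes. Maob differed by 0.14 (SE 0.0508, limma adjusted p 0.487).

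The Gch1 call depended on the processing. Its limma adjusted p ran from 0.0387 to 0.145 with single arrays left out, and of these 8 fits only the one without Cav3.1 KO replicate 1 kept the call. The call was lost with the chip number series as a block (0.0556), within the larger series (0.274) and without Cav3.1 KO replicates 2 and 3 (0.213). It was also lost with 75th percentile scaling (0.0705), cyclic loess (0.0524) or the authors' deposited table (0.145). The call held after blank subtraction (difference 0.79, limma adjusted p 0.0357) and with a normexp offset of 16 (difference 0.46, limma adjusted p 0.0228). It also held without background correction (0.0467), without a filter (0.0465), with probes above blank on all 8 arrays (0.0445) and with a variance trend by intensity (0.018). Th, encoding tyrosine hydroxylase, differed by 0.059 (SE 0.0409, limma adjusted p 0.856), and the noradrenaline-forming enzyme gene Dbh by 0.0089 (SE 0.0526, limma adjusted p 0.997). Slc6a3, the dopamine transporter and a defining marker of dopaminergic neurons, was above the blank level on 4 of 8 arrays and above the 95th percentile of the negative controls on 0. Of 5 markers of noradrenergic and dopaminergic neurons, 4 were above the blank level on all 8 arrays. That share was near the one for all probes (19402 of 23381), so the count alone does not show transcripts of these neurons. Averaged over WT arrays, spots of these 4 ran from 65.8 (Th) to 108 (Dbh), where mean blank spots were 53.0 to 59.7. Over Cav3.1 KO arrays they ran from 72.5 to 111, where mean blank spots were 56.2 to 63.4. The normalised mean of all 5 markers was 6.18 to 6.20 on the WT arrays and 6.18 to 6.22 on the others.

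Downstream of the receptors no list held a called gene by limma. At an unadjusted p under 0.05 there were 0 of 9 G protein alpha subunits, 1 of 25 effectors, 0 of 11 regulators of signalling and 4 of 10 genes that respond to cyclic AMP (Dusp1, Fos, Nr4a1 and Sik1), against 8.1% of all probes. Of 9 G protein alpha subunits 6 were higher and 3 lower, with a median difference of 0.013, and the smallest p belonged to Gnai2 (0.24, SE 0.152), Gnai3 (0.089, SE 0.0694) and Gna11 (0.08, SE 0.105). Of 25 effectors, such as adenylyl cyclases, protein kinase A subunits and potassium channels, 13 were higher and 12 lower, with a median of 0.0023. With 75th percentile scaling 17 were higher and 8 lower, with a median of 0.0425 against 0.0342 over all probes. The phosphodiesterase gene Pde10a was closest to the threshold at -0.12 (SE 0.0279, limma adjusted p 0.19), followed by the cyclase genes Adcy7 (0.13, SE 0.0866) and Adcy9 (-0.11, SE 0.0715). Of 11 receptor kinases, arrestins and RGS proteins, which end receptor signalling, 3 were higher and 8 lower, with a median of -0.025, which turned to 6 higher and 5 lower with 75th percentile scaling. Rgs4 differed by 0.26 (SE 0.149), Grk5 by -0.029 (SE 0.0239) and Rgs7 by -0.076 (SE 0.0628). List genes with several probes were read from the brightest. A dimmer Rgs7 probe differed by -0.12 (SE 0.0411, limma unadjusted p 0.0183, adjusted p 0.43), so the count of 0 of 11 regulators depends on that choice.

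Genes that respond to cyclic AMP were mostly higher, 9 of 10, with a median difference of 0.11, and 0 passed by limma. Dusp1, a phosphatase of MAP kinases, differed by 0.96 (SE 0.197, limma adjusted p 0.147), Fos by 0.55 (SE 0.203, limma adjusted p 0.503) and the orphan nuclear receptor gene Nr4a1 by 0.41 (SE 0.16, limma adjusted p 0.555). The list mean was 6.87 to 7.10 on WT arrays and 7.20 to 7.26 on Cav3.1 KO arrays. Dusp1, Fos and Nr4a1 had the largest differences of the list, and a mean without them was not computed. Crem differed by -0.0074 and Nr4a3 by 0.00043. These genes respond to many other stimuli. With 75th percentile scaling 10 of 10 were higher and 1, Dusp1, was called.

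**Figure D4:**
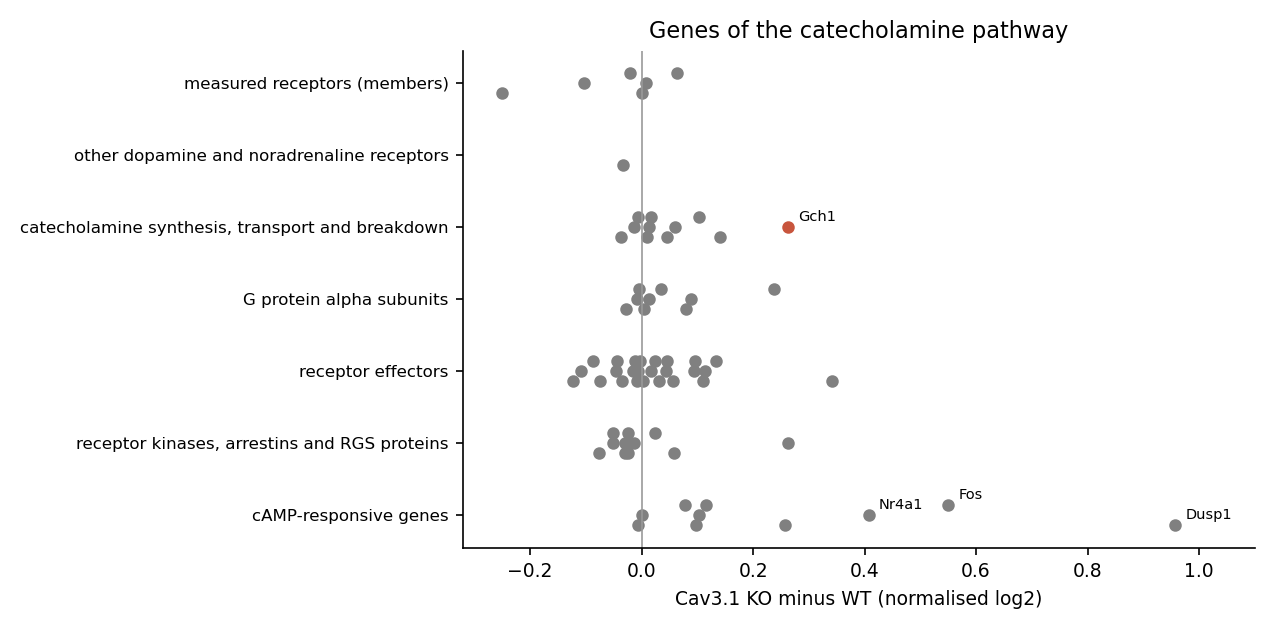
Difference of Cav3.1 KO minus WT (horizontal axis, normalised log2) for the 6 measured receptors and for genes of the pathway lists, 1 point a gene. Red marks an adjusted p under 0.05, which Gch1 alone reached, and the receptors span -0.25 to 0.063.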

How the data were processed

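The scanner output, as deposited, gives a median Cy5 spot intensity for each probe and array, before normalisation, per the file headers. The authors' deposited value table holds a linear intensity with a median of 25 on each array. It is a straight line of the spot intensity with its 0 near the mean blank spot (52.8 against 53.0 on WT replicate 1), so scale and direction are known, genes were not centred, and dim probes are empty. How it was normalised is not stated in the labels.

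Spot intensities were corrected with normexp (offset 50, all spots, no local background) and quantile normalised on the log2 scale. The planned correction presupposed a local background, which could not be used. Each of the 6 matched members had 1 probe. Probes above the 95th percentile of blank spots on at least 4 of 8 arrays were tested, leaving out 2239 dim probes and 84 with a spot marked not good. The test was limma 3.58.1 (lmFit and eBayes, R 4.3.3), with Benjamini-Hochberg adjustment over 21150 probes, and single values with exact permutation tests. The fit was also run on values simulated with independent normal errors. That run did not model variation shared by the genes of an array, and no result here rests on it. Named were all members, every called gene of a pathway list or else its 3 smallest p-values, and the 3 genes most like each of the 2 most variable members. Members and lists were chosen with earlier results of these data known. Other genes named, such as Th, Dbh, Slc6a3, Sik1, Sorcs2 and marker genes, were chosen after their values were seen. The number of arrays limits the precision.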

Additional observations from a re-analysis of the deposited data

Results flagged for a closer look

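Drd2 on WT replicate 3 lay apart from the other WT arrays, at a normalised log2 intensity of 5.91 against 5.97 on the nearest of them. The gap was 0.909 of the range of the group, above the 95% critical value of Dixon's test for 4 samples. Chance flags about 1 in 20 such groups, and 12 groups of 4 arrays were examined.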

How the results depend on the processing

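None of the 6 receptors was called by limma under any of the 21 alternatives run, with adjusted p-values from 0.271 upward. Drd2 stayed higher, and Drd5 and Adra2c lower, in all 21. The number of probes called over the whole array, 61, was 110 with 75th percentile scaling (62 higher and 48 lower, against 42 and 19), 34 in the authors' deposited table, 7 within the larger chip number series, 17 without Cav3.1 KO replicates 2 and 3, and 16 to 49 with 1 array left out (16 without WT replicate 4, 26 without WT replicate 3, 37 without WT replicate 1, and 29, 33 and 34 without Cav3.1 KO replicates 2, 3 and 4). With the replicate number as a block, 8 were called and the limma adjusted p of Gch1 was 0.259. The numbers did not pair the arrays: same-numbered arrays correlated at -0.115 to 0.0109 in their deviations, and 0 of 8 correlated best with their own number. The dimmest receptors changed sign. Drd3 was 0.027 with 75th percentile scaling. Drd4 was -0.044 after blank subtraction, -0.099 in the authors' table, -0.0013 in the larger chip number series, -0.021 without Cav3.1 KO replicates 2 and 3, and -0.019 to 0.028 with 1 array left out. Adra1b was -0.0018 in the authors' table, -0.046 without those 2 arrays, and -0.023 to 0.029 with 1 array left out. The cause was not tested. Each receptor had 1 probe, so another choice of probe gave no value, and Adra1b had none where probes had to be above blank on all 8 arrays. Signal over background limits Drd2, Drd3, Drd4 and Adra1b, and a comparison with negative control spots was added after seeing the data.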
